A study of Mus musculus with 2 samples.

Results

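The p53 target genes followed here are 35 genes chosen by name, among them p53 itself (Trp53). The rule for choosing them used no measured value, but they were chosen with earlier results of these data known. All 35 were found among the 21905 genes shared by the 2 single-cell RNA-seq libraries of mouse bone. The libraries came from 12-week-old female mice that received vehicle (Veh) or a dose of 10 mg/kg of the anthracycline doxorubicin (Doxo) and were killed 96 h later. Cells were freed from crushed femurs and tibias with collagenase and depleted of cells bearing CD45, CD71 or Ter119, and per the labels also CD31, which endothelial cells carry. The strain and the number of mice behind each library were not stated, no genetic change was named in the labels, and each condition was 1 library. No difference between Veh and Doxo below therefore has a replicate check, no test was made between conditions, and every interval covers the counting error of transcripts alone.

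p53 is a transcription factor that is held at a low level by the ubiquitin ligase Mdm2 and is freed when DNA breaks, as after doxorubicin, which traps topoisomerase II on DNA. It then binds response elements near genes that halt the cell cycle, damp growth signals, repair DNA, change metabolism or start apoptosis, and near Mdm2, which closes a negative feedback loop. Which of these targets respond, and for how long, is known to differ between cell types and between a passing and a lasting p53 response. In bone marrow the stromal cells named CAR cells (Cxcl12-abundant reticular cells) support blood stem cells, and the question put to the data was which targets still stood higher in Doxo, and in which cells.

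Each library held 2488 cells, with 24859695 transcript counts (unique molecular identifiers, UMIs) in Veh and 20792012 in Doxo and a median of 8693 and 7348 UMIs per cell, and 4 cell barcodes occurred in both. Clustering followed by fixed marker genes gave 6 named classes. They were CAR-like cells (371 in Veh and 428 in Doxo), osteoblast-like cells (205 and 125), chondrocyte-like cells (247 and 204), bone and cartilage fibroblast-like cells (1105 and 1358), arteriolar and endosteal fibroblast-like cells (413 and 249) and endothelial-like cells (103 and 69), the last in spite of the depletion of CD31+ cells. A cluster of 44 and 55 cells led by Clic5 and Rab37 met no rule for a name. CAR-like cells carried all 8 listed CAR markers and chondrocyte-like cells all 8 of theirs. The median depth per cell was lower in Doxo in every class other than CAR-like cells, where it was 6231 UMIs in Veh and 7317 in Doxo, and chondrocyte-like cells were deepest (19476 and 14770). The Veh library held more erythroid RNA in every class and far more immune RNA in 2 of them. The 4 erythroid markers summed to between 96.9 and 601 CPM (UMIs per 1000000 UMIs of the class) in its classes against 0 to 11.4 CPM in Doxo, and the 8 immune markers to 1196 CPM in Veh and 94.7 CPM in Doxo in CAR-like and to 1015 and 92.9 CPM for the bone and cartilage fibroblast-like class. Elsewhere the immune markers lay between 34.8 and 138 CPM in Veh and between 34.5 and 171 CPM in Doxo. What part these differences have in the results was not tested.

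For each member the UMIs of all cells in a class were added up, and the log2 ratio of the Doxo to the Veh level was taken with 0.5 UMI added to each sum. A member was evaluated in a class when it had at least 20 UMIs over both libraries, and called higher or lower when its ratio passed 1.5-fold. Of the 190 pairs of a member and a class that could be evaluated, 35 were higher in Doxo and 25 lower, and of these 20 and 18 had an exact 95% interval that left out 0. Of all genes evaluated in a class, between 4.17% and 14.8% were higher and between 9.35% and 18.6% lower.

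Of the pairs past the fold with an interval clear of 0, chondrocyte-like cells held 9 higher and 6 lower and CAR-like cells 5 and 4. The share of all genes with such an interval is not given, so these counts have no background beside them. Bone and cartilage fibroblast-like cells, the largest class, held no member that was higher. In chondrocyte-like cells 10 of 32 evaluated members (31.2%) were at least 1.5-fold higher and 6 (18.8%) lower, beside 14.8% and 11.5% of all 10827 genes evaluated in that class. CAR-like cells had 6 of 31 (19.4%) higher and 5 (16.1%) lower, beside 12.9% and 9.89% of all genes. The differences between these shares were not tested. Thinned to 2000 UMIs a cell, chondrocyte-like cells had 2 of 10 members higher and 1 lower, beside 14.5% and 16.2% of all genes. Standardised over finer clusters, CAR-like cells had 2 of 31 lower, beside 10.9%. In bone and cartilage fibroblast-like cells 0 of 34 members were higher (all genes 4.17%) and 3 lower (8.82%, all genes 9.38%). Arteriolar and endosteal fibroblast-like cells had 5 of 34 (14.7%) higher and 1 (2.94%) lower, beside 7.07% and 9.35%. In osteoblast-like cells only 16 members could be evaluated. Of these 6 (37.5%) were higher and 2 (12.5%) lower, beside 12.8% and 18.6% of all genes. Endothelial-like cells had 4 of 23 (17.4%) higher and 6 (26.1%) lower, beside 14.5% and 10.5%, and the unnamed cluster 4 of 20 (20.0%) and 2 (10.0%), beside 12.5% and 10.1%. The median log2 ratio over evaluated members was 0.29 in CAR-like and 0.28 in chondrocyte-like cells, against 0.056 and 0.055 over all genes. It was -0.18 in bone and cartilage fibroblast-like cells (all genes -0.090), 0.11 among arteriolar and endosteal fibroblast-like cells (-0.015), 0.038 among osteoblast-like cells (-0.032), -0.067 in endothelial-like cells (0.040) and 0.23 in the unnamed cluster (0.027). Of these medians, those of CAR-like and chondrocyte-like cells turned to -0.054 and -0.14 when each cell was thinned to 2000 UMIs (all genes 0.023 and -0.009). They came to 0.012 and -0.053 in cells with no UMI of the immune and erythroid markers. The osteoblast-like median came to 0.91, with 13 of 25 members higher and 1 lower, when the p53 targets were kept out of the clustering. All genes there had a median of 0.093, with 19.3% higher and 13.2% lower. Under the other alternatives the osteoblast-like median lay between -0.46, over 5 members with a minimum of 50 UMIs, and 0.33, over 33 with no minimum.

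**Figure D1:**
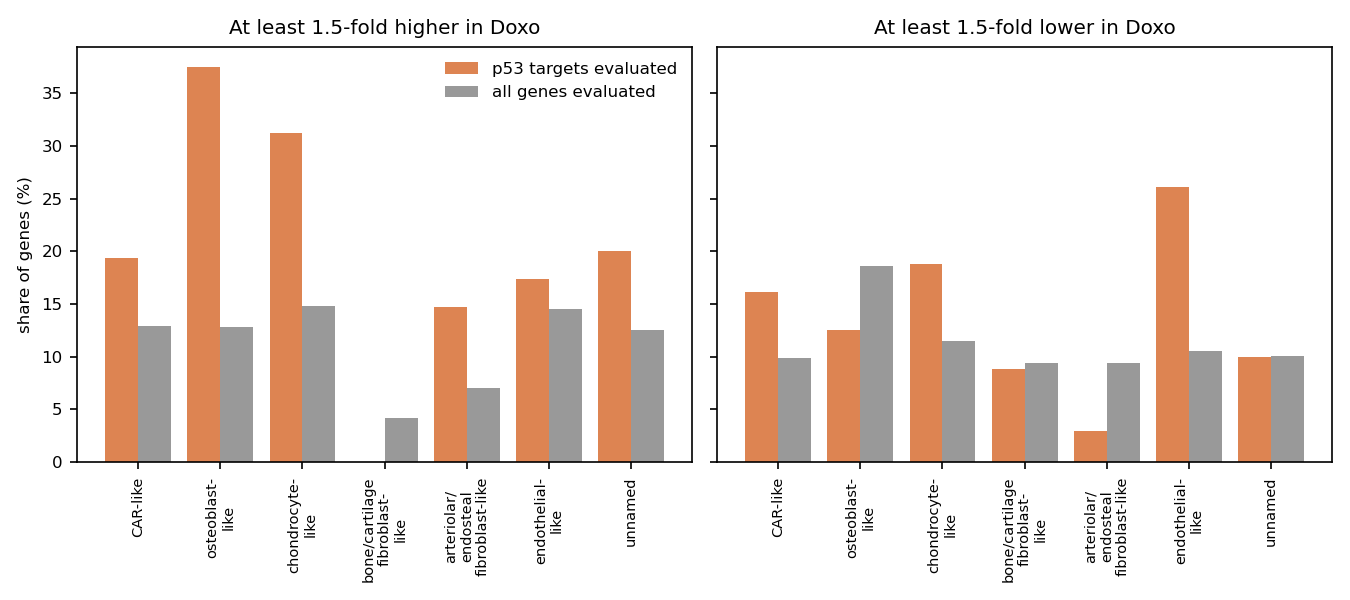
Share in percent of the evaluated p53 targets (orange) and of all evaluated genes (grey) that were at least 1.5-fold higher (left) or lower (right) in Doxo, for each class of cells. Chondrocyte-like cells stood at 31.2% of members against 14.8% of genes higher, and bone and cartilage fibroblast-like cells at 0 members higher.

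**Figure D2:**
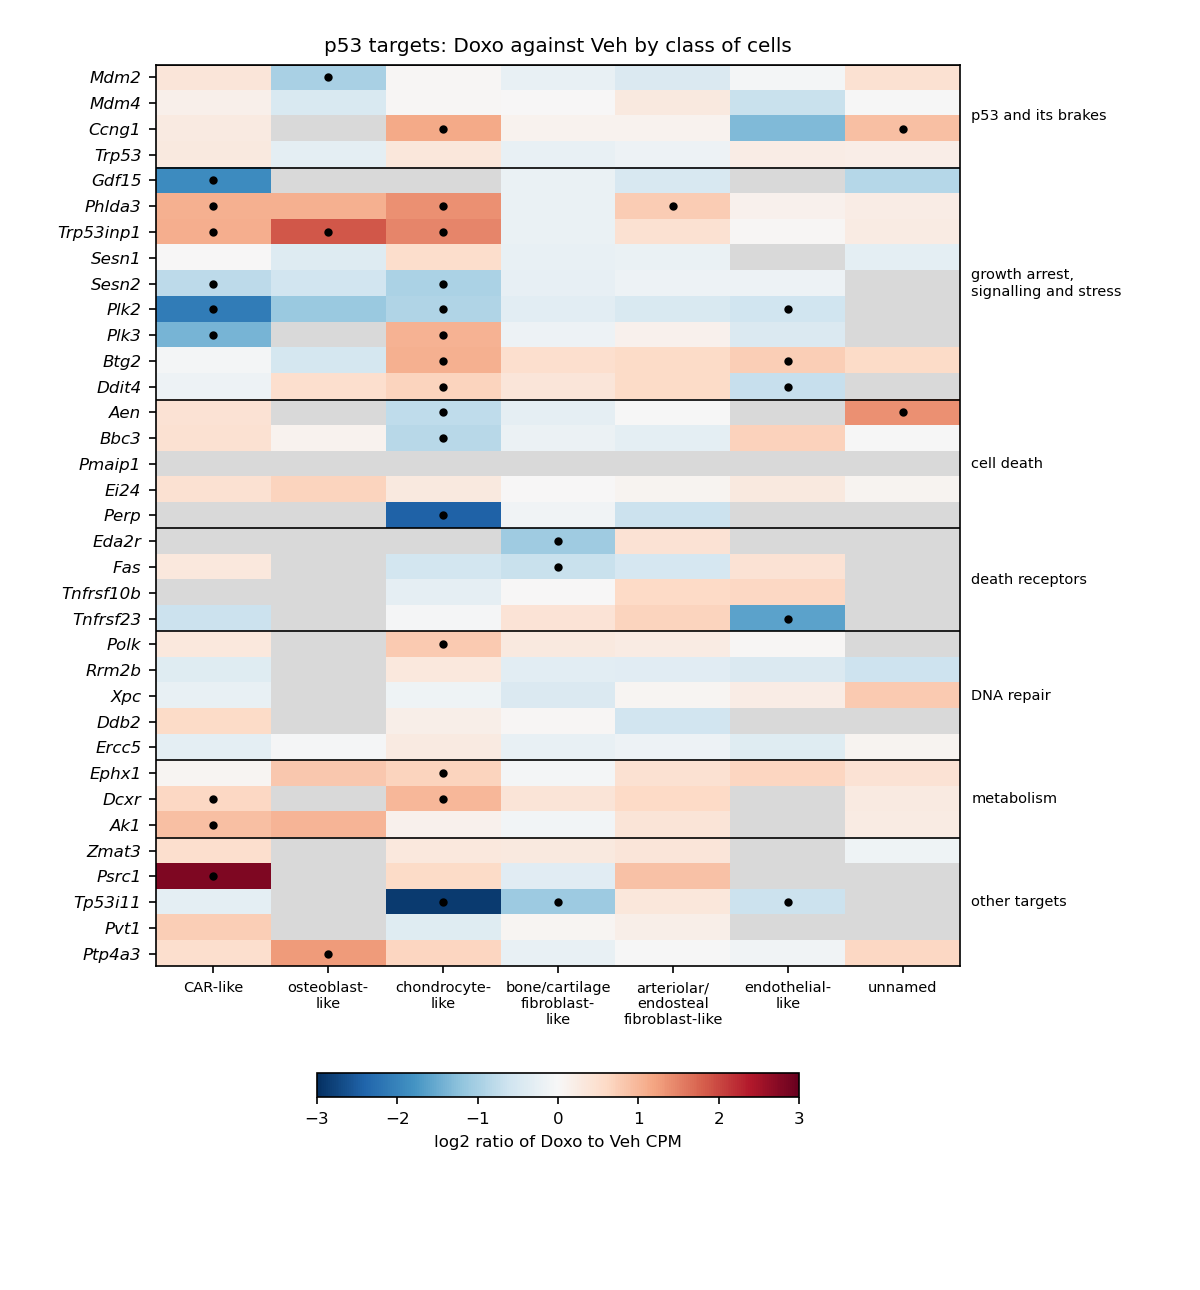
Log2 ratio of the Doxo to the Veh level for each of the 35 members (rows, grouped by role) in each class of cells (columns), red for higher and blue for lower in Doxo. Grey cells had under 20 UMIs, and a black dot marks a ratio past 1.5-fold whose 95% interval left out 0; Phlda3 and Trp53inp1 carry 3 dots each, all on the higher side.

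Trp53 itself was not past the fold in any class. Its log2 ratio ran from -0.30 in osteoblast-like to 0.35 in chondrocyte-like cells, with 178 UMIs (69.8 CPM) in Veh and 287 UMIs (85.2 CPM) in Doxo in CAR-like cells, a log2 ratio of 0.29 (95% interval 0.012 to 0.56). Its protein, not its transcript, is the known point of control, and protein was not measured here. Mdm2, the ligase that marks p53 for destruction and the best-known sign of p53 activity, was higher by the fold in no class. In CAR-like cells it went from 98 UMIs (38.5 CPM) in Veh to 168 UMIs (49.9 CPM) in Doxo, a log2 ratio of 0.37 (95% interval 0.007 to 0.75). It had near-equal levels in chondrocyte-like cells, at 315 UMIs (64.8 CPM) in Veh and 206 UMIs (66.5 CPM) in Doxo, and lower levels in bone and cartilage fibroblast-like cells (log2 ratio -0.21, 95% interval -0.38 to -0.048) and among arteriolar and endosteal fibroblast-like cells (-0.44, 95% interval -0.82 to -0.076). Osteoblast-like cells had Mdm2 past the fold on the lower side, from 42 UMIs (54.1 CPM) in Veh to 13 UMIs (26.7 CPM) in Doxo, with a log2 ratio of -0.98 (95% interval -2.04 to -0.092). That sign turned, to 0.51, when the p53 targets were kept out of the clustering, which placed 223 Veh and 138 Doxo cells in that class in place of 205 and 125. Mdm4, a relative of Mdm2 that blocks p53, ranged from -0.66 to 0.28 and had no interval that left out 0. Ccng1, a cyclin that activates Mdm2, was higher in chondrocyte-like cells, from 86 UMIs (17.7 CPM) in Veh to 120 UMIs (38.7 CPM) in Doxo (log2 ratio 1.13, 95% interval 0.72 to 1.55), and in the unnamed cluster, from 20 UMIs (32.3 CPM) in Veh to 38 UMIs (60.8 CPM) in Doxo (0.90, 95% interval 0.10 to 1.77). In the other classes evaluated its log2 ratio lay between -1.32 and 0.27, with every interval spanning 0. Ccng1 thus differed from Mdm2, which shares its feedback role, in chondrocyte-like cells.

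The promoters of Mdm2, Ccng1 and Phlda3, the last being past the fold on the higher side in 4 classes, are shown because these 3 genes had unlike patterns over the classes. RefSeq promoter windows (build GRCm38.p6, 250 bases before to 50 after a start site) were matched by symbol for 25 of the 35 members. They were searched on both strands for the p53 decamer consensus, of which a response element holds 2 copies. Capitals mark a match. The window of Mdm2 lies at chr10:117710709-117711008 on the minus strand, that of Ccng1 at chr11:40755237-40755536 on the minus strand and that of Phlda3 at chr1:135765835-135766134 on the plus strand, and each sequence runs 5′ to 3′ on the strand of its gene.
Mdm2: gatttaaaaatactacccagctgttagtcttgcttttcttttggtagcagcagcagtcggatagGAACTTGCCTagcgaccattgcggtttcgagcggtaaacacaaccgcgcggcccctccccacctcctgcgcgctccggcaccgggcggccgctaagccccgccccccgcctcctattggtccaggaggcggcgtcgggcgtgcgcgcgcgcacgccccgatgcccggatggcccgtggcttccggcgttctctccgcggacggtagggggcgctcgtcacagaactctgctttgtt
Ccng1: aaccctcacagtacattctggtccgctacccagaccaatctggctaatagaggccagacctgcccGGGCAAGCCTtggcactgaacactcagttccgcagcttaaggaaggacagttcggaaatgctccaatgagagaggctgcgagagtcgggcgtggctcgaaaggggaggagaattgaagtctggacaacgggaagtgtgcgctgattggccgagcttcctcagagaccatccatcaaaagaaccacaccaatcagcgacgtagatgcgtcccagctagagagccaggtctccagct
Phlda3: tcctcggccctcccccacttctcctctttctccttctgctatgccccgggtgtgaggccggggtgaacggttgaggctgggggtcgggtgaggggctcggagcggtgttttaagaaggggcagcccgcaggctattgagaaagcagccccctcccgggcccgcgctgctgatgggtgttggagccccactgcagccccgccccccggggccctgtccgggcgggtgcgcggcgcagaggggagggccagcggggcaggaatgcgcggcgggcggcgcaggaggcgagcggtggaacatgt
The windows of Mdm2 and Ccng1 each held 1 decamer, which began 186 and 185 bases before the start site, and that of Phlda3 held no whole one. The last bases of the Phlda3 window fit the start of the decamer, and a match cut off by the end of a window could not be scored. Of the 25 members matched, 7 (28.0%) had at least 1 decamer in a window, namely Aen, Ei24, Sesn1, Mdm2, Ccng1, Trp53 and Polk, beside 9.55% of all 27025 genes. No member had 2 decamers within 13 bases of each other, which 20 genes in all had. A match is only a string of letters in this window, and the elements that p53 binds often lie in introns, as in Mdm2, outside it.

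Among the targets that damp growth signals, Phlda3 and Trp53inp1 were higher in Doxo in several stromal classes. Phlda3, which competes with the kinase Akt for membrane lipids, went from 234 UMIs (91.8 CPM) in Veh to 650 UMIs (193 CPM) in Doxo in CAR-like cells, 2.10-fold higher with a log2 ratio of 1.07 (95% interval 0.85 to 1.29). These UMIs came from 123 of 371 Veh and 258 of 428 Doxo cells. In chondrocyte-like cells, where it was low, it went from 34 UMIs (6.99 CPM) in Veh to 56 UMIs (18.1 CPM) in Doxo (log2 ratio 1.36, 95% interval 0.73 to 2.03). Arteriolar and endosteal fibroblast-like cells went from 657 UMIs (159.9 CPM) in Veh to 556 UMIs (271 CPM) in Doxo (log2 ratio 0.76, 95% interval 0.60 to 0.93). Osteoblast-like cells had a like ratio on few counts, 9 against 12 UMIs (log2 ratio 1.07, 95% interval -0.28 to 2.52). Bone and cartilage fibroblast-like cells went the other way by less than the fold, from 875 UMIs (77.8 CPM) in Veh to 730 UMIs (67.5 CPM) in Doxo (-0.20, 95% interval -0.35 to -0.061). Phlda3 differed by less than its counting error in endothelial-like cells and the unnamed cluster, with log2 ratios of 0.14 (-0.64 to 0.85) and 0.22 (-0.34 to 0.79). So Phlda3 was higher in the CAR-like, chondrocyte-like and arteriolar and endosteal fibroblast-like classes, and not in the class with most cells.

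Trp53inp1, which promotes p53 phosphorylation and autophagy, was higher in CAR-like, chondrocyte-like and osteoblast-like cells. It went from 47 UMIs (18.4 CPM) in Veh to 133 UMIs (39.5 CPM) in Doxo in CAR-like cells (log2 ratio 1.09, 95% interval 0.61 to 1.61). In chondrocyte-like cells it went from 28 UMIs (5.76 CPM) in Veh to 50 UMIs (16.1 CPM) in Doxo (1.47, 95% interval 0.79 to 2.21). In osteoblast-like cells it went from 8 UMIs (10.3 CPM) in Veh to 19 UMIs (39.03 CPM) in Doxo (1.87, 95% interval 0.66 to 3.32), a ratio that rests on 27 UMIs in all. In bone and cartilage fibroblast-like cells its log2 ratio was -0.20 (-0.50 to 0.10), and in arteriolar and endosteal fibroblast-like cells 0.47 (0.045 to 0.88), short of the fold. The plot of levels by class shows both genes beside Mdm2, Ccng1, Btg2 and Plk2.

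**Figure D3:**
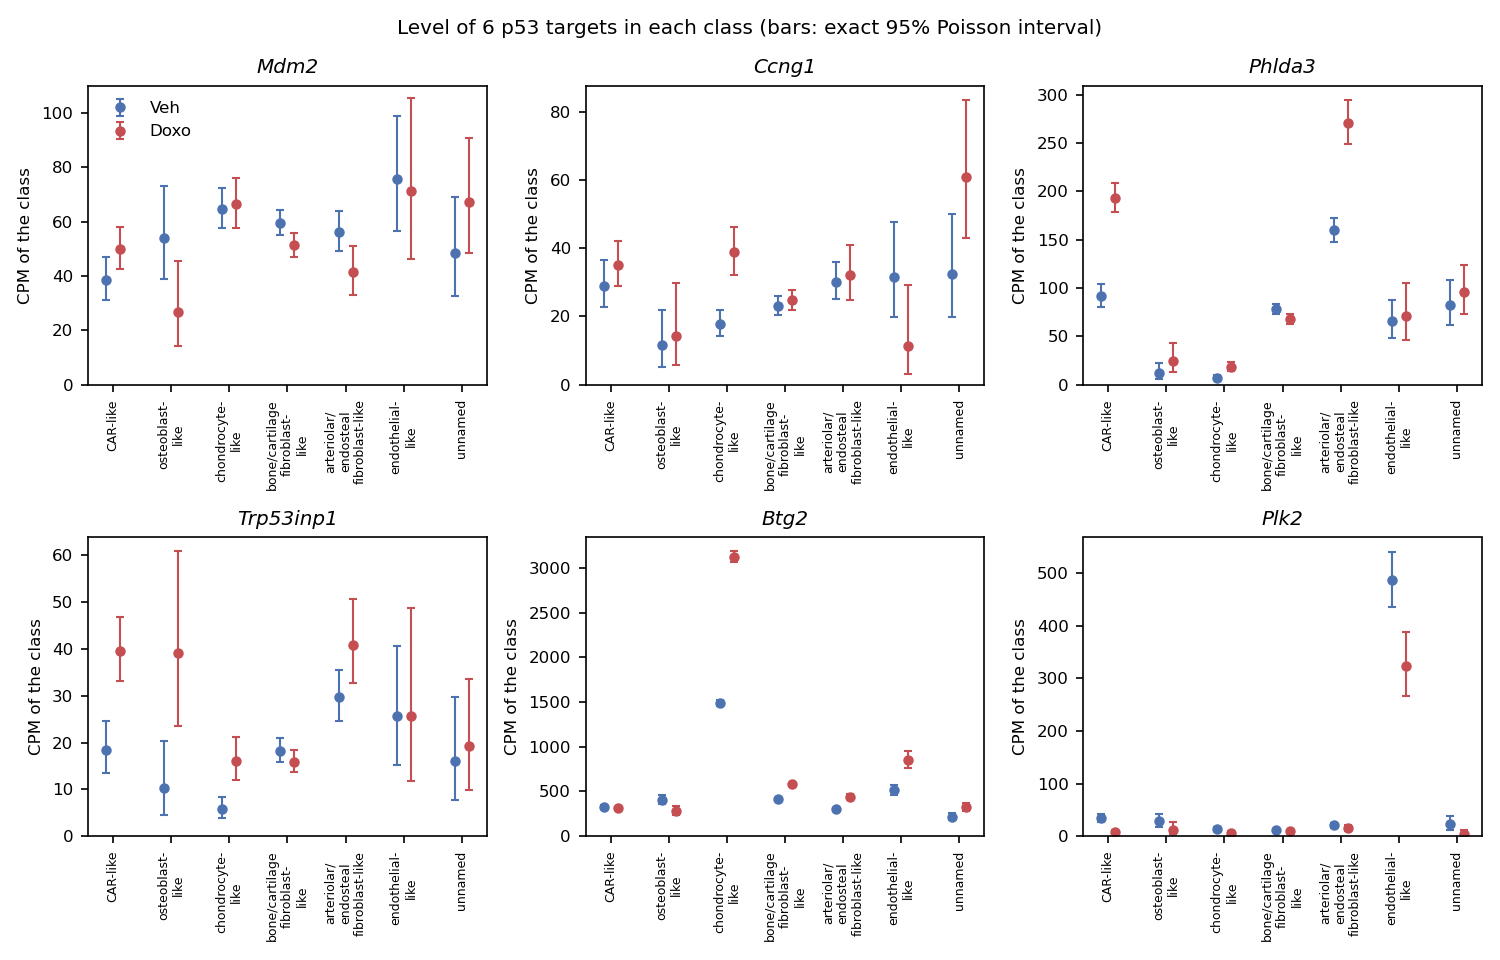
Level in CPM of 6 members in Veh (blue) and Doxo (red) for each class, with bars for exact 95% Poisson intervals of the UMI sum of 1 library. Phlda3 in CAR-like cells stands at 91.8 CPM in Veh and 193 CPM in Doxo with intervals that do not touch. Plk2 has a log2 ratio below 0 in all 6 classes in which it was evaluated, past 1.5-fold in 4 of them.

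Among targets that also belong to rapid stress responses, Plk3 was lower in CAR-like and higher in chondrocyte-like cells, and Plk2 was lower in both. Btg2, an antiproliferative factor, was abundant and went from 7221 UMIs (1486 CPM) in Veh to 9687 UMIs (3125 CPM) in Doxo in chondrocyte-like cells (log2 ratio 1.07, 95% interval 1.03 to 1.12). In endothelial-like cells it went from 359 UMIs (512 CPM) in Veh to 299 UMIs (854 CPM) in Doxo (0.74, 95% interval 0.51 to 0.96). In CAR-like cells as a whole it had 822 UMIs (323 CPM) in Veh and 1048 UMIs (311 CPM) in Doxo (-0.052, 95% interval -0.19 to 0.082). Within their 3 subclusters, described further on, whose sizes differed between the libraries, it was higher in Doxo, with log2 ratios of 0.57 (0.27 to 0.89), 0.62 (0.44 to 0.79) and 0.63 (0.25 to 1.04). In osteoblast-like cells it was lower by less than the fold (-0.52, 95% interval -0.82 to -0.23). Plk3, a stress-responsive polo-like kinase, was lower in CAR-like cells as a whole, from 44 UMIs (17.3 CPM) in Veh to 22 UMIs (6.53 CPM) in Doxo (log2 ratio -1.39, 95% interval -2.21 to -0.63). Of the 44 Veh UMIs, 37 lay in subcluster 2, which held 9 in Doxo (-0.83, 95% interval -2.13 to 0.18). Subcluster 1 held 2 UMIs in Veh and 10 in Doxo, under the minimum, with a log2 ratio of 0.82. In chondrocyte-like cells Plk3 was higher, from 31 UMIs (6.38 CPM) in Veh to 41 UMIs (13.2 CPM) in Doxo (1.05, 95% interval 0.34 to 1.77). Plk2, its relative, had a log2 ratio below 0 in all 6 classes in which it was evaluated. It was past the fold in 4 of them, with an interval below 0 in 3. In CAR-like cells Plk2 went from 86 UMIs (33.7 CPM) in Veh to 26 UMIs (7.72 CPM) in Doxo (-2.11, 95% interval -2.82 to -1.48). In chondrocyte-like cells it went from 63 UMIs (12.96 CPM) in Veh to 21 UMIs (6.78 CPM) in Doxo (-0.91, 95% interval -1.72 to -0.20), and in endothelial-like cells, where its level was highest, from 341 UMIs (487 CPM) in Veh to 113 UMIs (323 CPM) in Doxo (-0.59, 95% interval -0.91 to -0.28). The endothelial value sits just past the 1.5-fold limit.

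A list of 21 genes known to be induced by cell dissociation and early response, which holds none of the members, had ratios that differed between classes. Its median log2 ratio was -0.66 in CAR-like cells, with 12 of 21 genes lower by the fold and 0 higher, and 1.005 in chondrocyte-like cells, with 12 higher and 1 lower. Of all genes, 9.89% were lower and 12.9% higher in CAR-like cells, and 14.8% higher and 11.5% lower in chondrocyte-like cells. The median of the list was -0.44 in osteoblast-like, 0.37 in bone and cartilage fibroblast-like, 0.31 in arteriolar and endosteal fibroblast-like and 0.17 in endothelial-like cells, and 0.10 in the unnamed cluster. Whether dissociation had a part in the values of Btg2, Plk2 and Plk3 was not tested.

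Sesn2, an inhibitor of mTORC1 that is also a target of the stress factor ATF4, was lower in CAR-like cells, from 60 UMIs (23.5 CPM) in Veh to 46 UMIs (13.7 CPM) in Doxo (log2 ratio -0.78, 95% interval -1.37 to -0.21), and in chondrocyte-like cells, from 286 UMIs (58.8 CPM) in Veh to 94 UMIs (30.3 CPM) in Doxo (-0.95, 95% interval -1.31 to -0.62). The value in CAR-like cells fell short of the fold in 4 of 12 alternatives, reaching -0.16 and including subcluster 1 alone at -0.32, and that in chondrocyte-like cells in 2 of 11, reaching -0.40. The 11 listed ATF4 genes had a median log2 ratio of -0.24 over 8 evaluated genes in CAR-like and of -0.31 over 8 in chondrocyte-like cells. Sesn1, the family member more closely tied to p53, was past the fold in none of 6 classes and ranged from -0.38 to 0.52. Ddit4, another mTORC1 inhibitor that p53, hypoxia and glucocorticoids induce, went from 152 UMIs (217 CPM) in Veh to 47 UMIs (134 CPM) in Doxo in endothelial-like cells (-0.68, 95% interval -1.20 to -0.21), and was higher in chondrocyte-like cells, with a log2 ratio of 0.67 (0.30 to 1.04) that came to 0.075 when each cell was thinned to 2000 UMIs. The listed glucocorticoid-response genes had a median of 0.38 over 4 evaluated genes in endothelial-like and of 0.46 over 6 in chondrocyte-like cells, and their part in the values of Ddit4 was not tested.

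Gdf15, a secreted cytokine of the TGF-beta family, was lower in CAR-like cells, from 185 UMIs (72.6 CPM) in Veh to 66 UMIs (19.6 CPM) in Doxo (log2 ratio -1.88, 95% interval -2.32 to -1.48). Few cells made up these sums, 26 of 371 in Veh and 18 of 428 in Doxo, and 1 Veh cell alone held 61 of the 185 UMIs. In the fibroblast-like classes the log2 ratio was -0.19 (-0.58 to 0.19) and -0.48 (-1.51 to 0.40), and in the unnamed cluster -0.86 (-2.04 to 0.19), so that none of the 4 classes evaluated had it higher.

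The death genes were mostly short of the fold or lower. Bbc3 (Puma), which frees Bax and Bak from their inhibitors, was lower in chondrocyte-like cells and had log2 ratios of 0.47 (-0.043 to 1.01) in CAR-like and 0.69 (-0.55 to 1.87) in endothelial-like cells. Aen, a nuclease of apoptosis, was lower in chondrocyte-like cells too, and these 2 genes had log2 ratios between -0.83 and -0.77 there. In the unnamed cluster Aen was higher, from 10 UMIs (16.2 CPM) in Veh to 27 UMIs (43.2 CPM) in Doxo (log2 ratio 1.38, 95% interval 0.33 to 2.63). Osteoblast markers were higher in Doxo in that cluster as well, going from 1969 to 5587 CPM, and their part in the value was not tested. Perp, a membrane protein of desmosomes and apoptosis, went from 46 UMIs (9.46 CPM) in Veh to 5 UMIs (1.61 CPM) in Doxo in chondrocyte-like cells (-2.43, 95% interval -4.24 to -1.23), in 25 cells of Veh and 5 of Doxo. Ei24, an endoplasmic reticulum protein of autophagy, had a log2 ratio above 0 in all 7 classes, though of only 0.0006 in bone and cartilage fibroblast-like cells. Its interval left out 0 only in CAR-like cells (0.47, 95% interval 0.13 to 0.81). It was past the fold only in osteoblast-like cells, on 26 UMIs. Pmaip1 (Noxa) had 19 against 15 UMIs in all cells together and could be evaluated in no class.

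Where evaluated, the receptors of the death and tumor necrosis factor families had no higher value with an interval clear of 0 past the fold. Fas, which carries the extrinsic death signal, was lower in bone and cartilage fibroblast-like cells, from 314 UMIs (27.9 CPM) in Veh to 191 UMIs (17.7 CPM) in Doxo (log2 ratio -0.66, 95% interval -0.93 to -0.40), while its log2 ratio in CAR-like cells was 0.32 (-0.19 to 0.87). Eda2r, a receptor for an ectodysplasin isoform, went from 29 UMIs (2.58 CPM) in Veh to 13 UMIs (1.20 CPM) in Doxo in the same fibroblast-like class (-1.07, 95% interval -2.17 to -0.11). It was evaluated otherwise only in arteriolar and endosteal fibroblast-like cells (0.42, 95% interval -0.30 to 1.12). Under the minimum of 20 UMIs, Eda2r had 1 UMI in Veh and 11 in Doxo in CAR-like cells (2.54, 95% interval 0.27 to 8.48). In chondrocyte-like cells it had 0 UMIs in Veh and 6 in Doxo, from 2 cells, with an interval above 0. Its intervals in the remaining classes held 0. Tnfrsf23, a decoy receptor for TRAIL, went from 21 UMIs (29.96 CPM) in Veh to 3 UMIs (8.57 CPM) in Doxo in endothelial-like cells (-1.62, 95% interval -4.19 to -0.062). Tnfrsf10b, the TRAIL receptor of the mouse, passed the fold in arteriolar and endosteal fibroblast-like (0.60, 95% interval -0.48 to 1.63) and endothelial-like cells (0.61, 95% interval -0.10 to 1.31), with intervals that held 0.

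Of 28 evaluated pairs of the 5 DNA repair genes and a class, 2 were higher and 1 lower, beside shares of all genes between 4.17% and 14.8% higher and between 9.35% and 18.6% lower in a class. Only Polk, a polymerase that copies past damaged bases, had an interval above 0, in chondrocyte-like cells. Polk, Ddit4 and Ephx1 had log2 ratios between 0.67 and 0.79 in that class. The ratios of Rrm2b, a p53-induced subunit of ribonucleotide reductase, ran from -0.61 to 0.31. Those of Xpc and Ddb2, which recognise DNA lesions for nucleotide excision repair, ran from -0.44 to 0.78 and from -0.58 to 0.57, and those of the nuclease Ercc5 from -0.36 to 0.28. With the exception of Rrm2b in CAR-like and bone and cartilage fibroblast-like cells and Xpc in the latter, all slightly lower, every interval of these 4 genes held 0.

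Of 18 evaluated pairs of the 3 metabolic targets and a class, 8 were higher, 4 of them with an interval above 0, and 0 lower. Each gene counts once for every class where it was evaluated. The shares of all genes in a class were 4.17% to 14.8% higher and 9.35% to 18.6% lower, and the difference was not tested. Ak1, an adenylate kinase, went from 127 UMIs (49.8 CPM) in Veh to 316 UMIs (93.8 CPM) in Doxo in CAR-like cells (log2 ratio 0.91, 95% interval 0.61 to 1.22), in 97 and 196 cells. Dcxr, a reductase of dicarbonyls and xylulose, went from 68 UMIs (26.7 CPM) in Veh to 138 UMIs (40.97 CPM) in Doxo there (0.61, 95% interval 0.19 to 1.06) and from 36 UMIs (7.41 CPM) in Veh to 46 UMIs (14.8 CPM) in Doxo in chondrocyte-like cells (0.999, 95% interval 0.34 to 1.67). The value in CAR-like cells was just past the fold and fell short of it in 6 of 13 alternatives, to 0.28 at the lowest. Ephx1, an epoxide hydrolase, was higher in chondrocyte-like cells and had an interval above 0 but short of the fold in arteriolar and endosteal fibroblast-like cells (0.47, 95% interval 0.25 to 0.68).

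Of the remaining targets, Psrc1 had the highest ratio among all evaluated pairs of a member and a class. This microtubule-binding protein of the mitotic spindle went from 4 UMIs (1.57 CPM) in Veh to 41 UMIs (12.2 CPM) in Doxo in CAR-like cells (log2 ratio 2.80, 95% interval 1.49 to 4.90), and its 41 Doxo UMIs came from 20 cells. Ptp4a3, a phosphatase, was higher in osteoblast-like cells, from 9 UMIs (11.6 CPM) in Veh to 14 UMIs (28.8 CPM) in Doxo (1.28, 95% interval 0.001 to 2.70), with an interval that only just left out 0. Tp53i11, a p53-induced gene with its highest level in endothelial-like cells, was lower there, from 214 UMIs (305 CPM) in Veh to 68 UMIs (194 CPM) in Doxo (-0.65, 95% interval -1.07 to -0.25). It was lower as well in bone and cartilage fibroblast-like cells, from 38 UMIs (3.38 CPM) in Veh to 17 UMIs (1.57 CPM) in Doxo (-1.08, 95% interval -2.02 to -0.24). In chondrocyte-like cells it went from 51 UMIs (10.5 CPM) in Veh to 4 UMIs (1.29 CPM) in Doxo (-2.87, 95% interval -4.95 to -1.58). Zmat3, an RNA-binding regulator of splicing, and the long noncoding RNA Pvt1 had no interval that left out 0 in any class evaluated, and ranged from -0.13 to 0.50 and from -0.37 to 0.74.

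Levels of other cell types' markers moved within the classes. In chondrocyte-like cells the 9 osteoblast markers summed to 11492 CPM in Veh and 4048 in Doxo and the 8 chondrocyte markers to 38897 and 27945. In CAR-like cells the osteoblast markers summed to 9082 and 2309 and the CAR markers to 38473 and 46732. In endothelial-like cells the CAR markers summed to 826 and 2577 and the chondrocyte markers to 121 and 303, while the 8 endothelial markers stayed at 7453 and 7419.9. Their part in the members' ratios was not tested.

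CAR-like cells fell into 3 subclusters whose sizes differed between libraries. Subcluster 1, led by Fabp4 and Fabp5, held 187 Veh and 335 Doxo cells, subcluster 2, led by the chemokine genes Ccl2 and Ccl7, held 173 and 77, and subcluster 3 held 11 and 16. Within subcluster 1 alone, 9 of 28 evaluated members were at least 1.5-fold higher and 2 lower, beside 9.96% and 12.2% of all 10540 genes. Psrc1 (2.66, 95% interval 1.01 to 6.06), Phlda3 (1.01, 95% interval 0.72 to 1.32), Ak1 (0.78, 95% interval 0.39 to 1.20), Trp53inp1 (0.63, 95% interval 0.031 to 1.30) and Dcxr (0.62, 95% interval 0.061 to 1.25) stood higher there as in the class as a whole. Bbc3 went from 15 to 75 UMIs (log2 ratio 1.04, 95% interval 0.26 to 1.98), Mdm2 from 30 to 130 (0.85, 95% interval 0.29 to 1.49) and Fas from 15 to 67 (0.87, 95% interval 0.088 to 1.83), past the fold that they missed in the class. For Mdm2 1 Doxo cell gave 20 of the 130 UMIs. Plk2 (-1.16, 95% interval -2.27 to -0.036) and Tnfrsf23 (-1.25, 95% interval -2.22 to -0.28) were lower.

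Gdf15 differed in direction between the class and its main subcluster. All 185 Veh UMIs of Gdf15 lay in subcluster 2, and subcluster 1 had 0 UMIs in Veh and 55 in Doxo, at least 7.72-fold higher when 3 UMIs are put in place of the 0. Of those 55 UMIs, 36 came from 1 cell, and 14 cells held any. The subclusters were formed with Gdf15 and the other members among the genes used. When the p53 targets were kept out of the clustering, subcluster 1 (267 Veh and 399 Doxo cells) held 6 Gdf15 UMIs in Veh and 21 in Doxo, or 3.86 and 7.20 CPM. In the same cells 7 of 29 members were higher and 3 lower, beside 8.91% and 10.7% of all 10921 genes, Phlda3 stood at 102 and 195 CPM, and Mdm2 at 34.7 and 41.8 CPM, short of the fold.

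**Figure D4:**
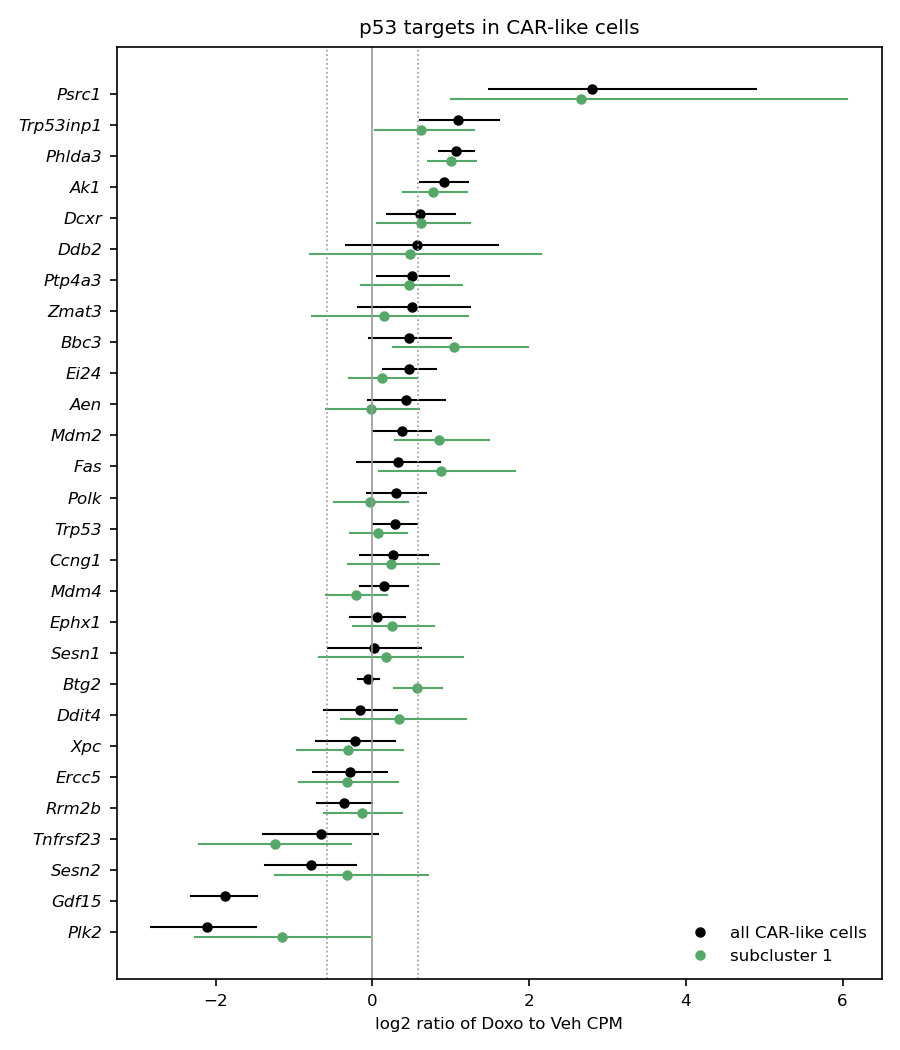
Log2 ratio of Doxo to Veh with 95% intervals for the 28 members evaluated in subcluster 1, in CAR-like cells as a whole (black) and in that subcluster (green), with dotted lines at 1.5-fold. Phlda3, Ak1 and Psrc1 stand to the right in both, Plk2 to the left in both, and Gdf15 is drawn for the whole class only because its subcluster held 0 UMIs in Veh.

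Ratios of a class were then set against those of all other cells, with a difference of log2 ratios and its interval from the UMI sums. For Phlda3 the CAR-like class exceeded the rest by 0.93 (95% interval 0.69 to 1.17) and the chondrocyte-like class by 1.07 (0.45 to 1.68), while bone and cartilage fibroblast-like cells stood apart by -1.05 (-1.23 to -0.87). For Trp53inp1 the differences were 0.91 (0.39 to 1.43) in CAR-like, 1.23 (0.54 to 1.92) in chondrocyte-like, 1.53 (0.35 to 2.71) in osteoblast-like cells, and -1.04 (-1.42 to -0.66) for the bone and cartilage fibroblast-like class. Psrc1 and Ak1 differed from the rest in CAR-like cells by 2.53 (1.02 to 4.05) and 0.83 (0.49 to 1.16). Mdm2, Bbc3, Fas and Aen, all short of the fold in CAR-like cells, nonetheless exceeded the other cells there, by 0.55 (0.17 to 0.93), 0.87 (0.33 to 1.41), 0.89 (0.34 to 1.43) and 0.72 (0.19 to 1.24). In chondrocyte-like cells Ccng1 exceeded the rest by 0.97 (0.54 to 1.41), Plk3 by 1.39 (0.68 to 2.10) and Btg2 by 0.64 (0.58 to 0.71), while Bbc3 and Aen lay below by -0.80 (-1.25 to -0.35) and -0.88 (-1.41 to -0.34). Phlda3 and Trp53inp1 thus exceeded the other cells in both the chondrocyte-like and the CAR-like class, while Bbc3 and Aen lay above them in CAR-like and below them in chondrocyte-like cells. For Dcxr both intervals held 0, at 0.10 (95% interval -0.40 to 0.60) and 0.38 (-0.29 to 1.05). These intervals compare cells of 1 library a condition. The other cells were pooled over classes whose sizes differed between the libraries, such as 247 Veh and 204 Doxo chondrocyte-like cells. In Veh that class had Bbc3 at 39.3 CPM and Aen at 25.5 CPM. Bone and cartilage fibroblast-like cells had them at 17.3 and 12.4 CPM. What part this mix of classes has in the differences was not tested.

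Further p53 targets that are not among the 35 were examined as a list of 33, of which 32 were in the data. Cdkn1a (p21), the kinase inhibitor that executes the p53 arrest, was past the fold in no class. It had 819 UMIs (321 CPM) in Veh and 809 UMIs (240.2 CPM) in Doxo in CAR-like cells (log2 ratio -0.42, 95% interval -0.56 to -0.28), a log2 ratio of -0.39 (-0.44 to -0.34) for bone and cartilage fibroblast-like cells and of 0.52 (0.19 to 0.85) in osteoblast-like cells. Bax, the pore-forming death protein, was higher in CAR-like cells, from 250 UMIs (98.1 CPM) in Veh to 529 UMIs (157 CPM) in Doxo (0.68, 95% interval 0.46 to 0.90). It was higher also in chondrocyte-like cells (0.62, 95% interval 0.32 to 0.91) and in the unnamed cluster (1.03, 95% interval 0.57 to 1.52) and level in bone and cartilage fibroblast-like cells (-0.14, 95% interval -0.29 to 0.002). In CAR-like cells 3 of 26 evaluated genes of this list (11.5%) were higher and 3 lower, beside 12.9% and 9.89% of all genes. Its median log2 ratio was 0.087, against 0.056 over all genes. The others higher were the long noncoding RNA Trp53cor1, with 1 against 19 UMIs (3.30, 95% interval 1.19 to 9.22), and Ckap2, a spindle protein, with 16 against 48 UMIs (1.15, 95% interval 0.34 to 2.10). Steap3 (-1.51, 95% interval -2.53 to -0.62) and Gadd45a (-0.81, 95% interval -1.09 to -0.53) were among those lower.

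In chondrocyte-like cells 6 of 25 were higher and 5 lower, beside 14.8% and 11.5% of all genes, with a median of 0.29. Ckap2 led with 14 against 118 UMIs (3.68, 95% interval 2.92 to 4.64), and Rap2b (-1.96, 95% interval -2.62 to -1.39) and Gadd45a (-1.004, 95% interval -1.27 to -0.75) were lower. The medians were -0.035 in osteoblast-like (13 genes evaluated, 3 higher, 3 lower), -0.15 in bone and cartilage fibroblast-like (29, 1, 2), -0.069 in arteriolar and endosteal fibroblast-like (24, 3, 2) and 0.18 in endothelial-like cells (19, 3, 4), and -0.013 in the unnamed cluster (17, 1, 4). Gadd45a, which couples damage to arrest and repair, was lower by the fold with an interval below 0 in CAR-like, chondrocyte-like, arteriolar and endosteal fibroblast-like and endothelial-like cells and in the unnamed cluster. Among 14 regulators of p53, such as Atm, Chek2 and Usp7, 0 of 12 were higher and 2 lower in CAR-like cells, beside 12.9% and 9.89% of all genes. In chondrocyte-like cells 2 of 11 were higher, beside 14.8%. In bone and cartilage fibroblast-like cells 0 of 13 were past the fold, beside 4.17% of all genes higher and 9.38% lower.

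Of the 38 pairs of a member and a class past the fold with an interval clear of 0, 20 stayed past it the same way under every other way of processing that gave them a value. Phlda3 in CAR-like cells ranged from 0.81 to 1.12, Trp53inp1 from 0.63 to 1.19 and Psrc1 from 1.60 to 2.84. In chondrocyte-like cells Btg2 ranged from 0.98 to 1.10, Trp53inp1 from 1.20 to 1.57 and Ccng1 from 0.61 to 2.01. Phlda3 in arteriolar and endosteal fibroblast-like cells fell to 0.33 at its lowest and was below the fold in 3 of 11 alternatives. The other 17 pairs that lost the fold in at least 1 alternative were Ak1, Dcxr, Gdf15, Plk3 and Sesn2 in CAR-like cells, Dcxr, Ddit4, Ephx1, Plk2, Polk and Sesn2 in chondrocyte-like cells, Btg2, Plk2 and Tp53i11 in endothelial-like cells, Mdm2 in osteoblast-like cells, and Eda2r and Fas in the bone and cartilage fibroblast-like class.

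**Figure D5:**
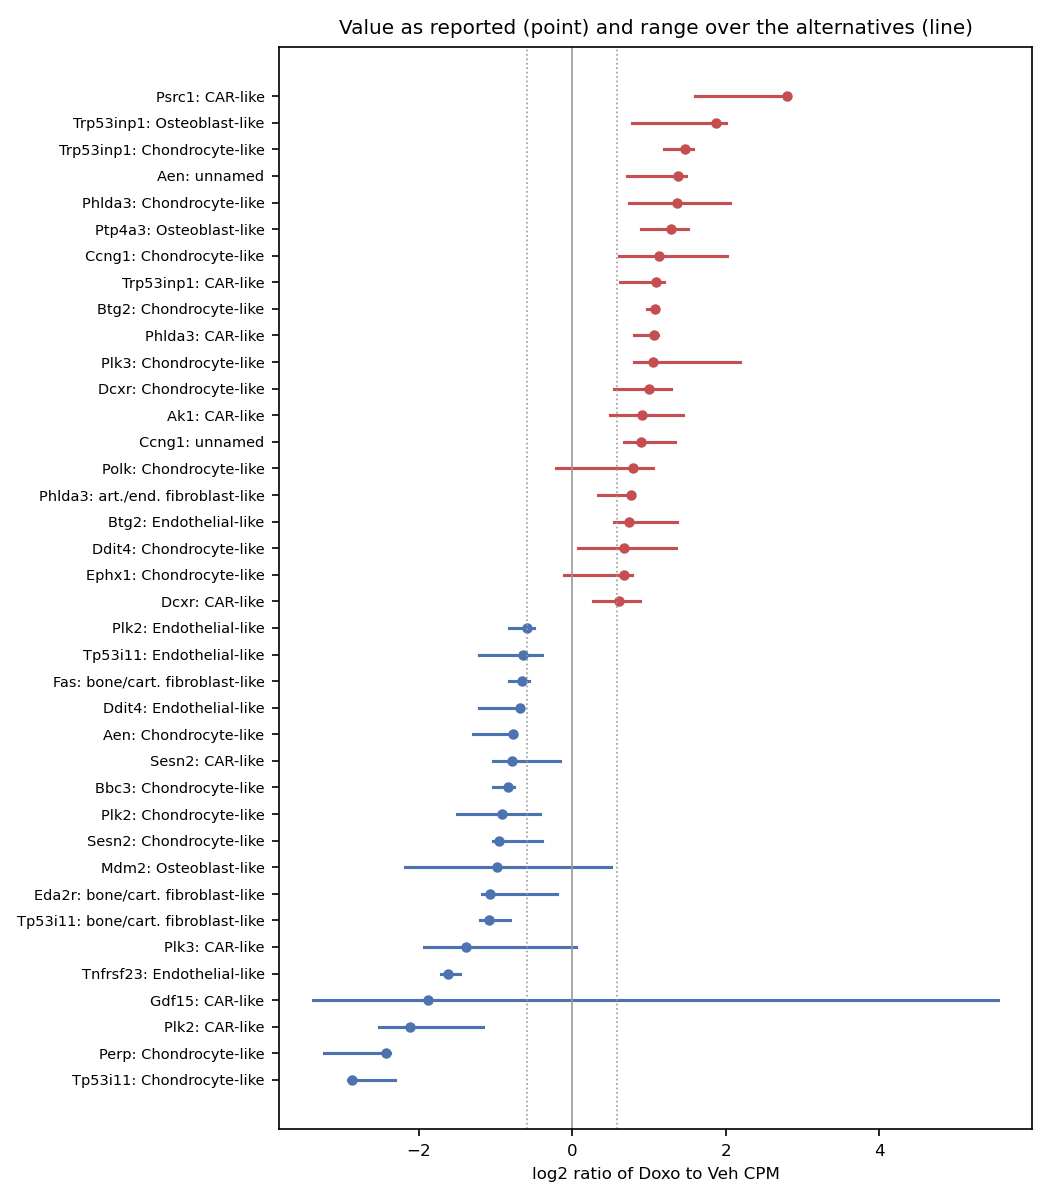
Log2 ratio of Doxo to Veh for the 38 pairs of a member and a class past 1.5-fold with an interval clear of 0: points are the values in the text and lines the range over the alternatives, red for higher and blue for lower in Doxo. Most lines stay on their side of 0, and Gdf15 in CAR-like cells spans it from -3.37 to 5.55, the upper end being a fitted value with 0 UMIs in Veh.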

How the data were processed

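Per the labels and the study's methods, reads were processed with Cell Ranger and Partek on GRCm38 (mm10). The deposited values were log2(y + 1) per cell, where y was the natural log of CPM plus 1, rescaled by the authors to sum to 1000000. This was inverted, and 99.9% of values up to 50 UMIs were whole within 0.05 UMI, for every member. 26 of 21905 symbols in Veh and 24 in Doxo were not. The inversion and the ratios were tested on simulated data.

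Cells were clustered in Seurat 5.3.0 (R 4.3.3) after the study's filters and settings (2000 variable genes, 35 components, resolution 0.1, endothelial cells set apart), without its imputation. Classes needed 3 markers in 10% of cells at a log2 difference of 1. No doublet caller was run. Sums, exact intervals and figures used Python 3.11.15, numpy 2.4.6, scipy 1.17.1, pandas 2.3.3 and matplotlib 3.10.9. With 1 library a condition no test was made and no paired fit is possible. Intervals take UMIs as independent, which UMIs of 1 cell are not.

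Full values were given in each class for up to 6 members with the highest and 4 with the lowest ratio past 1.5-fold with an interval clear of 0, and of other lists for Cdkn1a, Bax and up to 3 genes at each end. 1 gene of the list of further p53 targets is counted but not reported here by name. The members and lists were chosen with earlier results of these data known, and the order by role is that of textbook functions. 15 alternatives were tried, 2 of them added after the data were seen.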

Additional observations from a re-analysis of the deposited data

Results flagged for a closer look

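3 members were higher by the fold in 1 class and lower in another, each with an interval clear of 0, and the difference between the classes was not tested over samples. Aen had a log2 ratio of 1.38 in the unnamed cluster and -0.77 in chondrocyte-like cells. Ddit4 had 0.67 in chondrocyte-like and -0.68 in endothelial-like cells, and the former came to 0.075 with cells thinned to 2000 UMIs. Plk3 had 1.05 in chondrocyte-like and -1.39 in CAR-like cells, and in CAR-like cells it came to 0.049 in subcluster 1 of the clustering without p53 targets.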

How the results depend on the processing

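Of 397 values that the 38 called pairs took under the alternatives, 360 lay within the interval of the value in the text, 30 moved outside it and 7 changed sign. Gdf15 in CAR-like cells changed sign to 1.02 when standardised over finer clusters, which left 1 cluster with enough cells in CAR-like cells, to 5.55 in subcluster 1 and to 0.82 in subcluster 1 of the clustering without p53 targets, where Plk3 came to 0.049. Mdm2 in osteoblast-like cells came to 0.51 in the clustering without p53 targets. In cells with no UMI of the immune and erythroid markers, of which Veh held few (62 of 371 CAR-like and 33 of 247 chondrocyte-like cells), Ephx1 and Polk in chondrocyte-like cells came to -0.10 and -0.21.

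Counts of members higher or lower that moved by over 1.5 times, and medians that changed sign or moved beyond their counting error, were as follows. The percentages in brackets here and below are the shares of all genes evaluated. With cells thinned to 2000 UMIs, 0 of 5 members were higher in osteoblast-like (14.9%) and 2 of 10 in chondrocyte-like cells (14.5%). The number higher was 2 of 31 in bone and cartilage fibroblast-like (5.31%) and 1 of 8 in endothelial-like cells (13.899%). For the unnamed cluster it was 1 of 2 (15.7%). The number lower was then 1 of 10 in chondrocyte-like (16.2%) and 6 of 24 in arteriolar and endosteal fibroblast-like cells (11.7%). It was 2 of 8 in endothelial-like cells (12.99%) and 0 of 2 for the unnamed cluster (12.7%). The medians changed sign to -0.054 in CAR-like, -0.36 in osteoblast-like and -0.14 in chondrocyte-like cells and moved to -0.058 in bone and cartilage fibroblast-like and -0.48 in endothelial-like cells, with 0.57 for the unnamed cluster. Fewer members were evaluated there, 10 in place of 32 in chondrocyte-like cells, but Ddit4 was still evaluated and came to 0.075.

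Under the stricter filter on cells 2 of 5 were higher in osteoblast-like (12.8%) and 2 of 22 in endothelial-like cells (14.2%), and the osteoblast-like median was -0.31. Clustered without p53 targets, osteoblast-like cells had 13 of 25 higher (19.3%), 1 lower (13.2%) and a median of 0.91, and the chondrocyte-like median was 0.12. With 20 components arteriolar and endosteal fibroblast-like cells had 2 of 33 higher (7.34%), 2 lower (8.40%) and a median of 0.24, and the chondrocyte-like median was 0.12. Without the 5% of cells with most UMIs 1 was higher in bone and cartilage fibroblast-like, 8 in arteriolar and endosteal fibroblast-like and 2 in endothelial-like cells, with 2 lower in the arteriolar and endosteal fibroblast-like class and 0 in the unnamed cluster. With every cell weighing the same 3 were higher and 2 lower in arteriolar and endosteal fibroblast-like and 1 higher in endothelial-like cells, and the osteoblast-like and endothelial-like medians were -0.098 and 0.065. Centred on all genes, bone and cartilage fibroblast-like cells had 1 higher and a median of -0.095. With cells gated by marker genes 6 of 26 were lower in osteoblast-like (16.6%) and 4 of 28 in arteriolar and endosteal fibroblast-like cells (12.6%). The bone and cartilage fibroblast-like median was then -0.081. Standardised over finer clusters, 2 of 31 were lower in CAR-like (10.9%) and 2 of 34 in arteriolar and endosteal fibroblast-like cells (8.72%). The bone and cartilage fibroblast-like median was then -0.11. The number lower was 2 of 28 in CAR-like subcluster 1 (12.2%) and 3 of 29 in that of the clustering without p53 targets (10.7%).

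With a minimum of 50 UMIs 0 of 5 were higher (9.11%) and 1 lower (14.9%) in osteoblast-like cells. Arteriolar and endosteal fibroblast-like cells had 3 of 29 higher (4.98%) and 0 lower (6.64%). The unnamed cluster had 1 of 8 higher (8.14%) and 0 lower (7.07%), and endothelial-like cells 3 of 12 lower (7.69%). The medians were -0.46 in osteoblast-like and 0.034 in endothelial-like cells. With no minimum 15 of 33 were higher (26.5%) and 7 lower (30.0%) in osteoblast-like cells. For the unnamed cluster 8 of 34 were higher (24.7%) and 8 lower (21.9%), and the endothelial-like median was 0.065. In cells with no immune or erythroid UMI 0 of 4 were higher (18.0%) and 1 lower (23.6%) in osteoblast-like cells. In bone and cartilage fibroblast-like cells 4 of 32 were higher (6.71%). The number lower was 3 of 26 in chondrocyte-like (15.7%) and 2 of 26 in arteriolar and endosteal fibroblast-like cells (11.2%), with 0 of 9 for the unnamed cluster (17.5%). The medians there were 0.012 in CAR-like, -0.33 in osteoblast-like, -0.053 in chondrocyte-like, -0.083 in bone and cartilage fibroblast-like and 0.0034 in endothelial-like cells. The cause of these shifts was not tested. No paired analysis was possible because each condition has 1 library. Of the 35 members, 19 in osteoblast-like and 12 in endothelial-like cells, and 15 in the unnamed cluster, fell under the minimum of 20 UMIs.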
